A study of Mus musculus with 298 samples.

Results

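The genes followed here belong to the heat shock and cold responses, in single neurons of the suprachiasmatic nucleus (SCN), the clock of the mouse hypothalamus. They are Hspa1a, Hspa1b, Hspb1, Dnajb1, Hspa8, Hsp90aa1, Hsp90ab1, Hspa5, Cirbp and Rbm3, taken by symbol as 10 of the 22800 gene rows of the deposited count table. In the study, SCN neurons in slices were patch clamped one at a time, and the cytoplasm drawn into each pipette was sequenced with the Nextera XT kit. Day slices were cut near lights on (ZT0) and night slices near lights off (ZT12), from mice under a 12 h light and 12 h dark cycle. The labels give no genotype, strain, sex, age, animal or slice for any cell, and several cells could come from 1 slice. Each deposited sample was 1 cell, labelled by time (day or night), by firing (active, silent or depolarized) and by cFOS (cFOS+ or cFOS-), and no source used here says how cFOS was scored.

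The day cells were 51 active cFOS+, 27 active cFOS-, 17 silent cFOS+, 32 silent cFOS-, 2 depolarized cFOS+ and 7 depolarized cFOS-. The night cells were 41 active cFOS+, 46 active cFOS-, 35 silent cFOS+, 35 silent cFOS-, 3 depolarized cFOS+ and 2 depolarized cFOS-. Night silent cells S70 and S71, with opposite cFOS labels, were near copies of each other (correlation across genes 0.9995, against 0.696 for the next of 44253 pairs). They entered as 1 cell, their mean, with cFOS left blank. Total counts per cell ran from 3187057 to 25535298 reads, with a median of 6320667. Levels below are CPM, the reads of a gene relative to all reads of the cell, or of the summed cells of a group, and the intervals are exact Poisson 95% intervals that cover the counting error of reads only. Since no animal is named, each group counts as 1 sample: differences between groups have no replicate check and no p-value was computed.

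The heat shock response is governed by the transcription factor HSF1, which binds inverted repeats of the letters GAA upstream of chaperone genes. HSP70 chaperones fold proteins with the help of HSP40 partners, and HSP90 chaperones finish the folding of kinases and receptors. Some of these genes run at a high level in resting cells (Hspa8, Hsp90ab1), whereas others are known for their induction by stress (Hspa1a, Hspa1b, Dnajb1, Hspb1). Hspa5 encodes BiP, the HSP70 of the endoplasmic reticulum (ER) and a target of the unfolded protein response. Cirbp and Rbm3 encode RNA-binding proteins that rise when cells are cooled mildly, and Cirbp transcripts are known to follow the daily rhythm of body temperature.

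Promoters are shown for the members in which a known heat, cold or ER stress element was found, to show which of them share one. RefSeq windows of 250 bases before the transcript start (build GRCm38.p6) were found for 6 of the 10 members: Hspa1a, Hspa1b, Hspb1, Hspa5, Dnajb1 and Cirbp. Capitals mark the motif named in each clause. Lines Hspa1a, Hspa1b and Hspb1 show bases -150 to -51 with GAANNTTC, a pair of heat shock units head to head, in capitals. Hspa1a and Hspa1b have the same letters here.
Hspa1a: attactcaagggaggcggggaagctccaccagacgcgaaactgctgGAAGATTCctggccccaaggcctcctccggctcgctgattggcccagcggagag
Hspa1b: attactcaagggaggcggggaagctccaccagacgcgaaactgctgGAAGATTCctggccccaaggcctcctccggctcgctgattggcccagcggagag
Hspb1: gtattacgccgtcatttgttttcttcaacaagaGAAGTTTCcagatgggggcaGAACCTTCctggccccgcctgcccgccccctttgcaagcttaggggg
These stretches are chr17:34972207-34972306 and chr17:34959289-34959388 on the minus strand and chr5:135887769-135887868 on the plus strand. The line for Hspa5 shows bases -70 to -41 (chr2:34772020-34772049, plus strand, inside the first exon of the GENCODE M21 model) with the ER stress element (CCAAT, any 9 bases, CCACG), and the line for Cirbp shows bases -250 to -151 (chr10:80167589-80167688, plus strand) with TCCCCGCC, a motif known as the mild cold response element.
Hspa5: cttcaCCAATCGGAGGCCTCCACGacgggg
Cirbp: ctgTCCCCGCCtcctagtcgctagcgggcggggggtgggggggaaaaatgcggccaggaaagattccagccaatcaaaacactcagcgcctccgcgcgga

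Both strands were searched, and among all 32851 RefSeq windows of the same length GAANNTTC was found in 6.69%, the ER stress element in 0.113% and TCCCCGCC in 4.64%. Hspa1a and Hspa1b, neighbours on chromosome 17, differed at 3 of 250 upstream bases (98.8% identity), and both also hold TCCCCGCC at -137. Neither window of Dnajb1 and neither of Cirbp held GAANNTTC. The 3-unit heat shock element, which is GAANNTTC followed by any 2 bases and GAA and is present in 0.466% of windows, was in no member's window, nor was the E-box CACGTG (6.02%). Of 25 genes with a window among Hspa5 and a list of 29 other ER genes, 8 held the ER stress element: Hspa5, Hsp90b1, Calr, Canx, Pdia6, Dnajc3, Creld2 and Syvn1. A match is a description of letters and no evidence of binding.

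A step in the data bears on several members and is given first. Sorted by the number in the cell's title, the cells fell into a lower-numbered set, S15 to S432 (96 day and 101 night cells), and a higher-numbered set, S435 to S5162 (40 day and 60 night cells, none depolarized). The boundary was chosen after seeing the level of the glycolytic gene Gapdh, which stood at 1566 CPM in the lower-numbered set and 41.5 CPM in the higher-numbered set. The prolyl isomerase gene Ppia stood at 699 and 14.8 CPM. What the numbers stand for is not stated in the labels. Hspa8 stood at 2699 and 1052 CPM in the lower- and higher-numbered cells (medians 2515 and 801), and Hsp90aa1 at 950.3 and 384.1 CPM (medians 871 and 336.2). For both genes the quartile ranges of the sets did not overlap. Rbm3 stood at 129 and 59.3 CPM (medians 84.1 and 12.7), Dnajb1 at 348.9 and 185.2 CPM (medians 159 and 0.171) and Hspa1a at 17.5 and 8.28 CPM.

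Hspa5 (1593 and 1615 CPM), Hsp90ab1 (2047 and 1972 CPM) and Cirbp (332 and 308.5 CPM) differed little between the sets. Of the 7 members with at least 20 CPM in either set, 4 were higher in the lower-numbered cells past 1.5-fold and none was lower past it, where 14.1% of 8702 genes were higher and 15.3% lower. The members also differ in how far their transcripts repeat elsewhere in the genome. Of the 50-base words in the GENCODE M21 coding transcripts, a transcript of another gene held 68.8% for Hspa8, 66.3% for Hspa1a, 62.3% for Hspa1b, 50.1% for Hsp90aa1 and for Hspb1, and 13.3% for Rbm3. The share was 4.13% for Hsp90ab1, 0.412% for Dnajb1 and 0 for Hspa5 and Cirbp. Over 8347 genes with both values, the median log2 ratio of the lower- over the higher-numbered cells was 0.15 (quartiles -0.31 and 0.70) for 303 genes with more than 50% of their words shared and -0.03 (quartiles -0.37 and 0.33) for 3847 genes with none. Dnajb1 stepped with almost no shared words. Of the genes with more than 50% shared, 28.1% were higher in the lower-numbered cells past 1.5-fold and 14.5% lower. Of those with none, 13.9% were higher and 15.4% lower. Some rows, picked as examples and not by a rule, went the opposite way to Gapdh and Ppia. Gm10116 stood at 5.07 CPM in the lower- and 204.7 CPM in the higher-numbered set, Rpl9-ps6 at 1.38 and 77.7 CPM and Gm10076 at 13.5 and 82.1 CPM. No source used here says how reads that fit several genes were counted in either set, so the levels of Hspa8, Hsp90aa1, Hspa1a and Hspa1b may not mean the same in both. The part of sequence sharing in the step was not tested. The members and the gene lists are therefore compared over all cells and within each set, whereas shares of cells with a read and sums of markers are given over all cells.

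**Figure D1:**
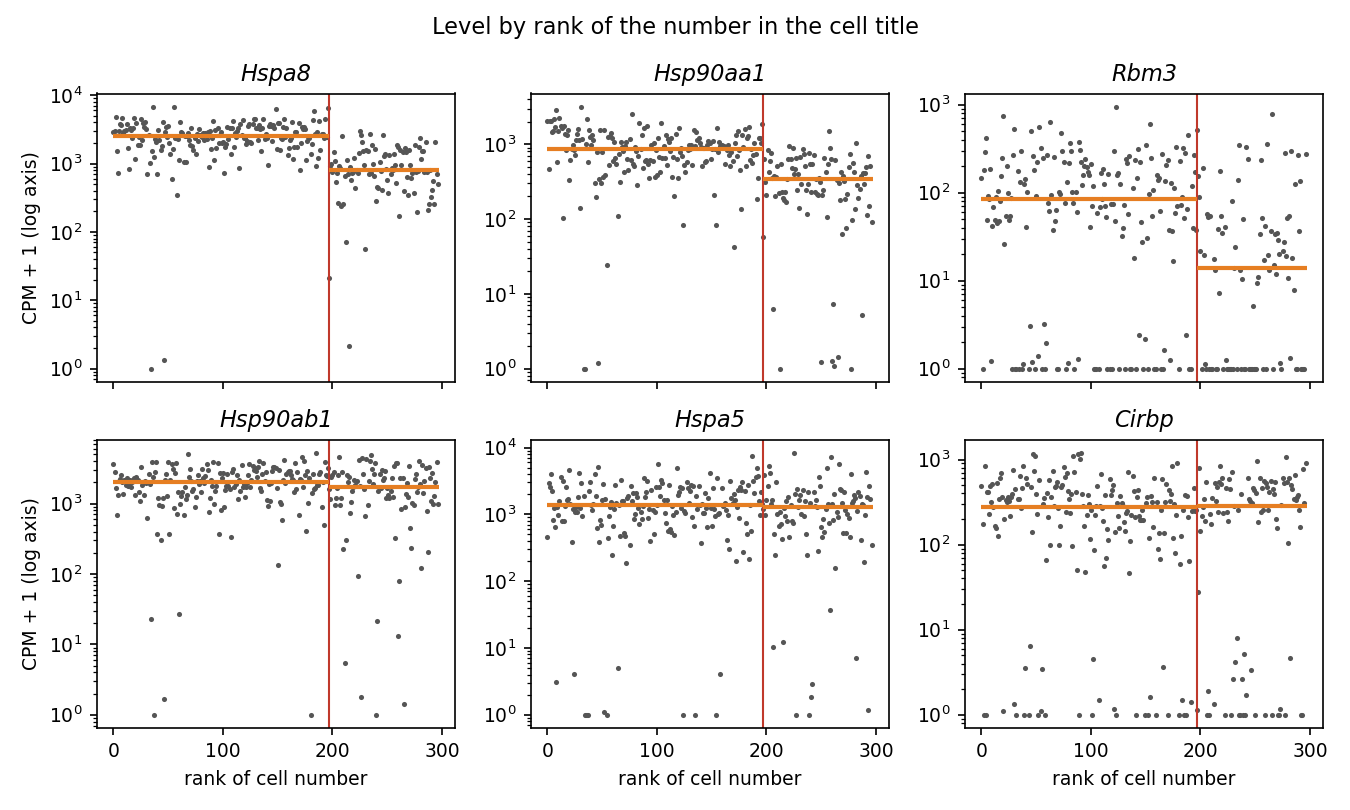
Level of 6 members in each cell, as CPM + 1 on a log axis, against the rank of the number in the cell's title. The red line marks the boundary between cells S432 and S435 and the orange bars are the medians of each set; Hspa8, Hsp90aa1 and Rbm3 drop at the line (medians 2515 to 801, 871 to 336.2 and 84.1 to 12.7 CPM), whereas Hsp90ab1, Hspa5 and Cirbp run on.

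The cells carried neuronal transcripts throughout. The 12 neuron markers summed to a median of 6094 CPM in day and 5588 CPM in night cells (lowest cell 1112 and 147 CPM), and 12 SCN markers to medians of 2322 and 1529 CPM. Microglial RNA was present as well, and each of 12 microglia markers stood higher in day cells (pooled sum 1503 against 550 CPM, highest cell 35548 and 34761 CPM, none of the 12 at 0 on either side), and 56 of 127 day cells and 52 of 156 night cells held at least 100 CPM of them. Of the measured microglia markers, 11 of 11 were higher by day in the lower- and 11 of 12 in the higher-numbered set. Most markers of astrocytes and oligodendrocytes moved the same way. The 12 astrocyte markers summed to 766.4 CPM in day and 358.1 CPM in night cells, and all 7 measured ones were higher by day past 1.5-fold. The 10 oligodendrocyte markers summed to 517.5 and 294.96 CPM, and all 5 measured ones were higher, 4 of them past the fold. Of the measured ones, 5 of 5 were higher in the lower- and 3 of 5 in the higher-numbered set. With the sparse markers included, 10 of 12 astrocyte markers were higher by day and 2 lower, and 7 of 10 oligodendrocyte markers were higher and 3 lower. The part of glial RNA in the day and night differences below was not tested beyond leaving out cells with at least 100 CPM of microglia markers. Fos, the transcript behind the cFOS label, was higher by day (2714 against 2014 CPM). Its pooled level went against the label, with 2005 CPM in cells labelled cFOS+ and 2676 CPM in cells labelled cFOS- (log2 ratio -0.48 and -0.31 within the sets). The medians were 1054 and 2115 CPM in the lower-numbered set. In the higher-numbered set they were 1436 and 1336 CPM, and 2 of 4 splits by time and firing were above 0 there. The cFOS comparisons below therefore refer to the labels alone.

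The housekeeping chaperones were among the abundant transcripts of these neurons. Hsp90ab1, the constitutive HSP90, and Hspa8, the constitutive HSP70, stood at 2020.4 and 2117 CPM over all cells, and were read in 99.0% and 99.7% of cells. Hspa5 stood at 1600.4 CPM (96.6% of cells) and Hsp90aa1, the stress-responsive HSP90, at 750.2 CPM (98.7%). Per kilobase of exon the order was Hsp90ab1 (674 CPM per kb), Hspa8 (492.1), Hspa5 (378.4), Hsp90aa1 (190.8), Cirbp (124), Dnajb1 (90.8), Rbm3 (22.2), Hspa1a (4.80), Hspb1 (1.21) and Hspa1b (0.444). This order is for all cells pooled, and Hspa8 and Hsp90aa1 take their places here with the step between the sets. In the higher-numbered cells Hspa8 (1052 CPM) stood below Hspa5 (1615 CPM), and the order per kilobase was not computed within the sets.

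**Figure D2:**
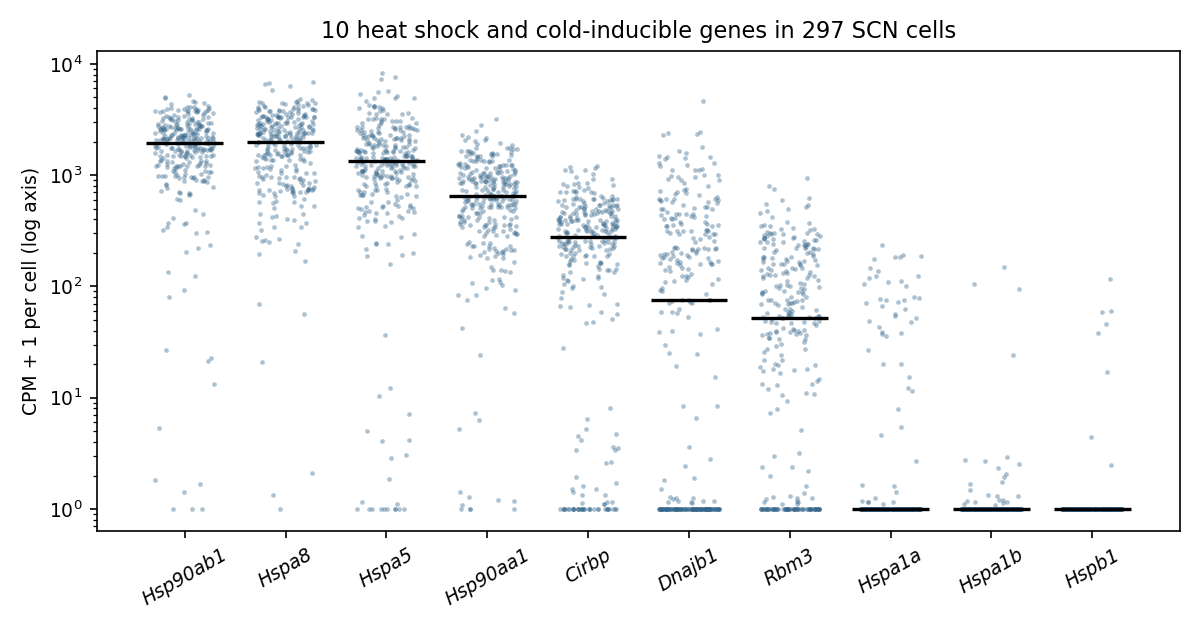
Level of the 10 genes in each cell, as CPM + 1 on a log axis, 1 point per cell, with the median as a black bar. Hsp90ab1 forms a compact band around a median of 1939 CPM. Hspa8 has a median of 1999.5 CPM over all cells, with 2515 and 801 CPM in the lower- and higher-numbered sets. Dnajb1 and Rbm3 spread from 0 to 4608 and 949 CPM, and Hspa1a, Hspa1b and Hspb1 lie at 0 in most cells.

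Cell-to-cell spread tended to be wider for members with lower levels, and it was not compared with other genes of the same level. Hsp90ab1 (chromosome 17, 45567775 to 45573271) ran from 0 to 5252 CPM with a median of 1939 CPM, and its coefficient of variation over cells, the SD divided by the mean, was 0.546. The coefficient was 0.623 for Hspa8 (chromosome 9, 40800984 to 40810087; median 1999.5 CPM), 0.718 for Hsp90aa1 (chromosome 12, 110690605 to 110702728; median 643 CPM), 0.813 for Hspa5 (chromosome 2, 34771970 to 34777547; median 1347 CPM) and 0.840 for Cirbp (chromosome 10, 80165985 to 80172786; median 278 CPM). Rbm3 (X chromosome, 8138975 to 8145880) reached 1.36, with a median of 51.1 CPM and a highest cell of 949 CPM. Dnajb1, an HSP40 that works with HSP70 (chromosome 8, 83608193 to 83612653), reached 1.78: it was read in 188 cells, had a median of 74.3 CPM and stood at 4608 CPM in night active cFOS+ cell S313. Its 10 highest cells held 32.5% of its reads, against 10.97% for Hsp90ab1. The coefficients were taken over both sets, so those of Hspa8, Hsp90aa1, Rbm3 and Dnajb1 include the step between the sets.

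The inducible HSP70 genes were nearly silent in most cells. Hspa1a (chromosome 17, 34969190 to 34972156) was read in 53 cells (17.8%) and at 100 CPM or more in 14, with a highest cell of 233.9 CPM. Hspa1b (chromosome 17, 34956436 to 34959238) was read in 25 cells, and 4 of them held 95.7% of its 2514 reads. No cell had 10 CPM or more of both genes, although 21 cells had reads of both. Their coding sequences were 99.4% identical (11 differences in 1929 aligned columns), with 638 columns in the longest identical run, so reads could be split between them and each level is uncertain. The small heat shock protein gene Hspb1 (chromosome 5, 135887919 to 135889563) was read in 8 cells, up to 116 CPM. With cells thinned to 4210000 reads each (30 cells held fewer and were left out), Hspa1a was found in 17.6% of cells (exact Clopper-Pearson 95% interval 13.2 to 22.7%), Hspa1b in 7.87% (4.93 to 11.8%) and Hspb1 in 2.62% (1.06 to 5.33%). Intervals of shares take each cell as an independent draw, although several could come from 1 slice, and do not cover the spread between animals. No difference between groups is therefore read from them. The medians of these 3 genes were 0 in all 8 active and silent groups. Cells with at least 100 CPM of microglia markers had 24.2 CPM of Hspa1a and other cells 7.93 CPM. Whether microglial RNA carried these reads was not tested.

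By day against night, the constitutive HSP90 was higher and the cold-inducible Cirbp lower, and the heat-inducible members showed no common direction. The comparison held 127 day and 156 night cells that were active or silent, and was repeated in the 4 strata that firing and cFOS label define together. Of the 10 members, 7 had at least 20 CPM on one side. Of these, 4 were higher by day, where 47.4% of genes were, and 3 lower (median log2 ratio 0.11, against -0.03 over 8637 genes). One passed 1.5-fold, where 23.9% of all genes did. Read against that background, the members passed the fold no more often than other genes did.

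Cirbp was lower by day in every split made. It ran from 0 to 1099 CPM in day cells with a median of 227 CPM and from 0 to 1201 CPM in night cells with a median of 343 CPM, and the quartile ranges overlapped (46.3 to 358 and 156 to 508.2 CPM). The pooled level was 253.3 CPM for day cells, with an interval of 252.2 to 254.3, against 386.3 CPM for night cells, with 385.1 to 387.5, a log2 ratio of -0.61 or 1.52-fold lower by day, just past the 1.5-fold line. The 4 strata gave -0.29, -0.58, -0.34 and -1.18, from active cFOS+ to silent cFOS- cells. A decrease past 1.5-fold and in all 4 strata was seen in 5.18% of all genes, and one that was also lower in both sets of numbers in 4.78%. Within the sets the ratio was -0.55 (271 against 397 CPM) and -0.76 (218 against 370.2 CPM), and in 4 groups of neighbouring cell numbers it lay between -0.69 and -0.47.

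The lower day level of Cirbp was found in each peptide class and among cells with less than 100 CPM of microglia markers. Among cells with at least 100 CPM of Vip day cells had 181.2 CPM of Cirbp and night cells 367 CPM (22 and 30 cells). Among cells with Avp at that level and less Vip it stood at 310.5 and 494 CPM (44 and 45 cells), and among the rest at 232.3 and 332.9 CPM (61 and 81 cells). Leaving out the cells with at least 100 CPM of microglia markers gave -0.61, and the cells kept could still hold some microglial RNA. As a mean over cells the log2 ratio was -0.51, on the side of the 1.5-fold line that is not called. A thinned Cirbp read was present in 84.2% of day cells, with an interval of 76.2 to 90.4%, against 91.4% for night, with 85.5 to 95.5%.

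In order of their medians, the 8 groups ran from night silent cFOS+ (381.2 CPM), night silent cFOS- (372.4), night active cFOS- (327.6) and night active cFOS+ (300.3) to day active cFOS+ (252.01), day active cFOS- (231.4), day silent cFOS- (223) and day silent cFOS+ (216). All 4 night groups thus stood above all 4 day groups, while the quartile ranges of every pair of neighbours overlapped. Rbm3, the other cold-inducible member, did not follow Cirbp. It ran from 0 to 949 CPM by day (median 53.0 CPM) and from 0 to 791 CPM at night (median 40.1 CPM), and was pooled at 111 and 97.1 CPM, a log2 ratio of 0.19 with strata from -0.50 to 0.74. The ratio of Rbm3 was 0.15 in the lower- and 0.04 in the higher-numbered cells.

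Hsp90ab1 was higher by day in 3 of 4 strata. Day cells ran from 0 to 5252 CPM with a median of 2153 CPM and night cells from 0 to 5063 CPM with a median of 1800.3 CPM, with quartile ranges of 1511 to 2971 and 1143 to 2392 CPM. The pooled levels were 2288 and 1811 CPM, a log2 ratio of 0.34, short of 1.5-fold. The strata gave 0.44, 0.35, 0.68 and -0.003, so silent cFOS- cells did not share the difference. It was 0.32 in the lower- and 0.37 in the higher-numbered cells and between 0.32 and 0.39 in the 4 groups of neighbouring numbers. Day silent cFOS+ cells had the highest median of the 8 groups at 2843 CPM and night active cFOS- cells the lowest at 1711 CPM. Hsp90aa1 had a ratio of 0.11 across all cells (782 against 722 CPM), -0.07 among lower and 0.53 among higher numbers. In the higher-numbered cells all 4 strata were above 0 (0.21 to 0.86).

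**Figure D3:**
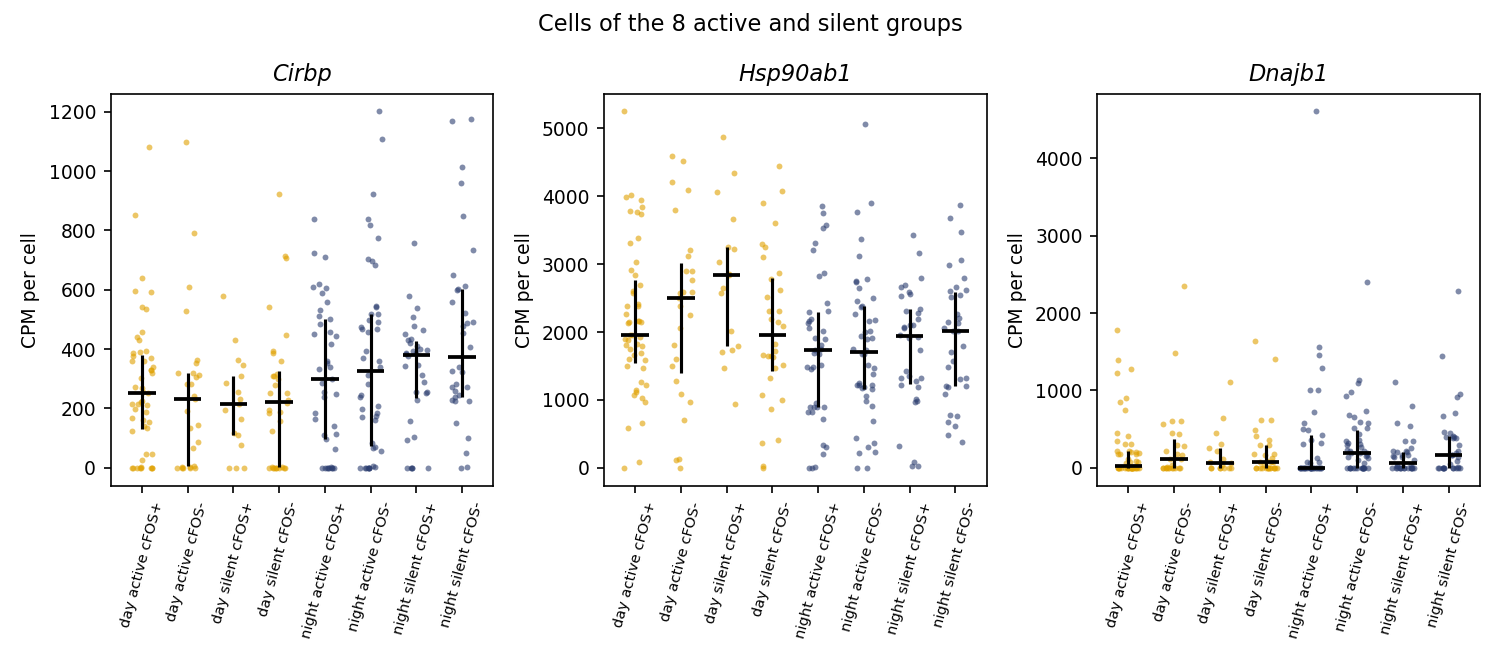
Level of Cirbp, Hsp90ab1 and Dnajb1 in CPM in each active or silent cell with a cFOS label, by group, with day cells in yellow and night cells in blue. Horizontal bars are medians and vertical bars the quartile range; the Cirbp medians of the 4 night groups (300.3 to 381.2 CPM) stand above those of the 4 day groups (216 to 252.01 CPM), with wide overlap of cells.

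The other measured members differed less between day and night. Hspa8 ran from 19.9 to 6821 CPM by day and from 0 to 6556 CPM at night, with medians of 2079.8 and 1896 CPM, and its log2 ratio of 0.21 was 0.15 and 0.05 within the sets. Hspa5 had a ratio of -0.20 (1491 against 1711 CPM), -0.35 among lower and 0.06 among higher numbers. Dnajb1 had medians of 61.2 and 126.4 CPM and highest cells of 2356 and 4608 CPM. Pooled it stood at 256.1 and 299.8 CPM, a ratio of -0.23 that was below 0 in all 4 strata (-0.50 to -0.02), as it was in 8.37% of genes, and in both sets (-0.24 and -0.41). Split into 4 groups of neighbouring cell numbers the Dnajb1 ratio was 0.11, -0.35, 0.49 and -2.67. Without cells holding at least 100 CPM of microglia markers it was 0.07. Thinned Hspa1a reads were present in 24.6% of the day cells, with an interval of 17.0 to 33.5%, against 11.4% at night, with 6.68 to 17.9%, and with pooled levels of 15.1 and 11.6 CPM. Microglia markers were also higher by day. Over active and silent cells, Spearman's rho of Hspa1a was 0.21 with the summed microglia markers (0.21 and 0.17 within the sets). With the number of genes detected in a cell it was 0.25 (0.27 and 0.15). The part of either in the day and night values of Hspa1a was not tested. In the lower-numbered cells Hspa1a stood at 15.5 and 16.6 CPM and in the higher-numbered cells at 14.4 and 4.09 CPM. Hspa1b had 0.282 CPM in the day cells and 2.12 CPM in the night cells, and Hspb1 had 1.03 and 1.52 CPM, levels that rest on the few cells with reads.

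Among related genes, the difference was spread thinly. Of 33 measured cytosolic co-chaperones and HSF1 genes, 24 were higher by day (median log2 ratio 0.07), where 47.4% of all genes were, and 1 passed 1.5-fold, where 23.9% did. In the lower-numbered cells 18 of 33 were higher and in the higher-numbered 25 of 34. Of 27 genes of ER folding and the unfolded protein response, 11 were higher and 16 lower (median -0.19), and 7 were lower in all 4 strata, where 8.37% of all genes were. Within the sets 9 of 27 and 13 of 27 were higher. Creld2, an ER protein induced by unfolded proteins and read in 25.6% of cells, had 30.3 CPM in day and 55.7 CPM in night cells, with ratios of -1.10 and -0.51 within the sets. Eif2ak3, which encodes the ER stress kinase PERK, went the other way with 31.9 and 11.6 CPM, and ratios of 2.37 and 0.56. It was read in 17.2% of cells, with a median of 0 and a highest cell of 818 CPM. Of 8 mitochondrial chaperones 5 were lower, over all cells and in each set, and Dnaja3, a mitochondrial HSP40, stood at 56.4 and 119 CPM (-0.75 and -1.95 within the sets). Of 19 further genes of the cold response and its RNA-binding partners, 10 were higher and 9 lower, 1 passed the fold, and 12 and 11 were higher within the sets.

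Firing made little difference to these genes. Among 165 active and 118 silent cells, 2 of 7 measured members were higher in active cells, where 50.5% of genes were, and 5 lower (median log2 ratio -0.02, against 0.005 over 8662 genes). None passed 1.5-fold, where 22.4% of genes did, and none held 1 direction in all 4 strata of time and cFOS label, where 14.4% did. Hspa8 was nearly equal, with medians of 1931 and 2036 CPM and pooled levels of 2096 and 2120.4 CPM (log2 ratio -0.02). It was -0.04 in the lower- and -0.28 in the higher-numbered cells, and below 0 in all 4 strata of the latter. Dnajb1 had the largest ratio at 0.25 (300.2 against 252.7 CPM), although the medians were 74.3 and 74.4 CPM. The ratio of Dnajb1 was 0.02 and 0.78 within the sets. Hsp90aa1 had a ratio of -0.06, and -0.14 and -0.12 within the sets, and Hsp90ab1 had -0.08, with 0.05 and -0.31. Rbm3 had -0.01, with -0.07 and -0.06.

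Hspa5 stood at 1679 CPM in active and 1520.4 CPM in silent cells, a ratio of 0.14 that was -0.04 and 0.45 within the sets. Cirbp stood at 313.8 and 344.4 CPM, with ratios of -0.29 and 0.14 within the sets, so its direction with firing differed between them. Cirbp in silent cells split by time, with 315.7 and 519.1 CPM pooled in the night groups and 229.2 and 248.99 CPM in the day groups. Among related genes, Dnajb5, an HSP40 of neurons, stood at 85.5 CPM in active and 47.2 CPM in silent cells (0.93 and 0.73 within the sets). The mitochondrial protease Lonp1 stood at 84.2 and 44.3 CPM (1.55 and 0.25) and Eif2ak3 at 27.5 and 11.4 CPM (2.07 and 0.55). Eif2ak3 and Lonp1 had medians of 0 over all cells and Dnajb5 one of 0.557 CPM. In active and silent cells the Dnajb5 medians were 1.06 and 0.516 CPM in the lower- and 0 and 0.952 CPM in the higher-numbered set. Of 35 cytosolic co-chaperones 17 were higher, where 50.5% of all genes were, with 19 of 34 and 11 of 34 within the sets. Of 27 ER genes 9 were higher, with 6 of 27 and 19 of 27 within the sets.

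By the cFOS label, Hspa5 was higher and Dnajb1 lower in cells labelled cFOS+, each in all 4 strata of time and firing and each short of 1.5-fold. The comparison held 143 cFOS+ and 139 cFOS- cells. Of 7 measured members 3 were higher in cFOS+ cells, where 46.8% of genes were, and 4 lower (median -0.04, against -0.03 over 8624 genes), and none passed 1.5-fold, where 22.1% of genes did. Hspa5 ran from 0 to 8335 CPM with a median of 1403 CPM in cFOS+ cells and from 0 to 7314 CPM with a median of 1249.96 CPM in cFOS- cells. Pooled it stood at 1754 and 1460 CPM, a log2 ratio of 0.27 with strata from 0.04 to 0.66, and 6.18% of genes were higher in all 4 strata. It was 0.28 and 0.24 within the sets of numbers, each with 3 of 4 strata above 0.

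Dnajb1 had medians of 28.96 CPM in cFOS+ and 144.1 CPM in cFOS- cells, with upper quartiles of 283.9 and 407.6 CPM and a lower quartile of 0 in both. The pooled levels were 243 and 321 CPM, a ratio of -0.40 with strata from -0.99 to -0.05. It was lower in all 4 strata as 7.85% of genes were. Within the sets the ratio was -0.30 and -0.70, each with 3 of 4 strata below 0. The share of cells with a thinned Dnajb1 read was 62.2% (53.2 to 70.6%) and 67.5% (58.5 to 75.5%). Pooled over all cells, Fos and Dnajb1 thus both stood lower in cells labelled cFOS+, and so did microglia markers (pooled sum 799.9 against 1166 CPM). Of the measured microglia markers, 3 of 11 and 4 of 12 were higher in cFOS+ cells within the sets. Without cells holding at least 100 CPM of microglia markers the Dnajb1 ratio was -0.25. Peptide content moved with the label too. Vip, a peptide of core SCN neurons, stood at 3759 CPM in cFOS+ and 1139 CPM in cFOS- cells, 3.30-fold higher and higher in all 4 strata, and Nms, another SCN peptide, was 2.14-fold higher. Vip was also 2.96-fold higher in active than in silent cells. Hspa5 stood at 1777 CPM in cells with at least 100 CPM of Vip, 1476 CPM in cells with that much Avp and less Vip, and 1621 CPM in the rest, and Dnajb1 by these classes is given further on. The part of peptide content in the label differences was not tested.

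Cirbp had a log2 ratio of -0.26 between the labels, -0.41 in the lower- and 0.01 in the higher-numbered cells. Hspa8 had ratios of 0.10 across all cells, 0.05 and 0.38 within the sets, and in the higher-numbered cells it was above 0 in all 4 strata. Hsp90ab1 stood at 2065 and 1984 CPM (0.06), with 0.16 and -0.13 within the sets. Hsp90aa1 had a ratio of -0.04 (-0.03 and -0.07 within the sets) and Rbm3 one of -0.08 (-0.03 and -0.22). Among related genes, Dnaja4, an HSP40 induced by heat, stood at 102 and 158 CPM (-0.39 and -0.98 within the sets). Dnaja3 stood at 70.1 and 114 CPM (-0.28 and -1.54) and Eif2ak3 at 12.6 and 29.2 CPM (-0.22 and -2.85). The medians of Dnaja3 and Eif2ak3 were 0 over all cells and that of Dnaja4 was 0.155 CPM. Of 27 ER genes 17 were higher in cells labelled cFOS+, where 46.8% of all genes were, and 10 lower, with 13 of 26 and 17 of 27 higher within the sets.

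**Figure D4:**
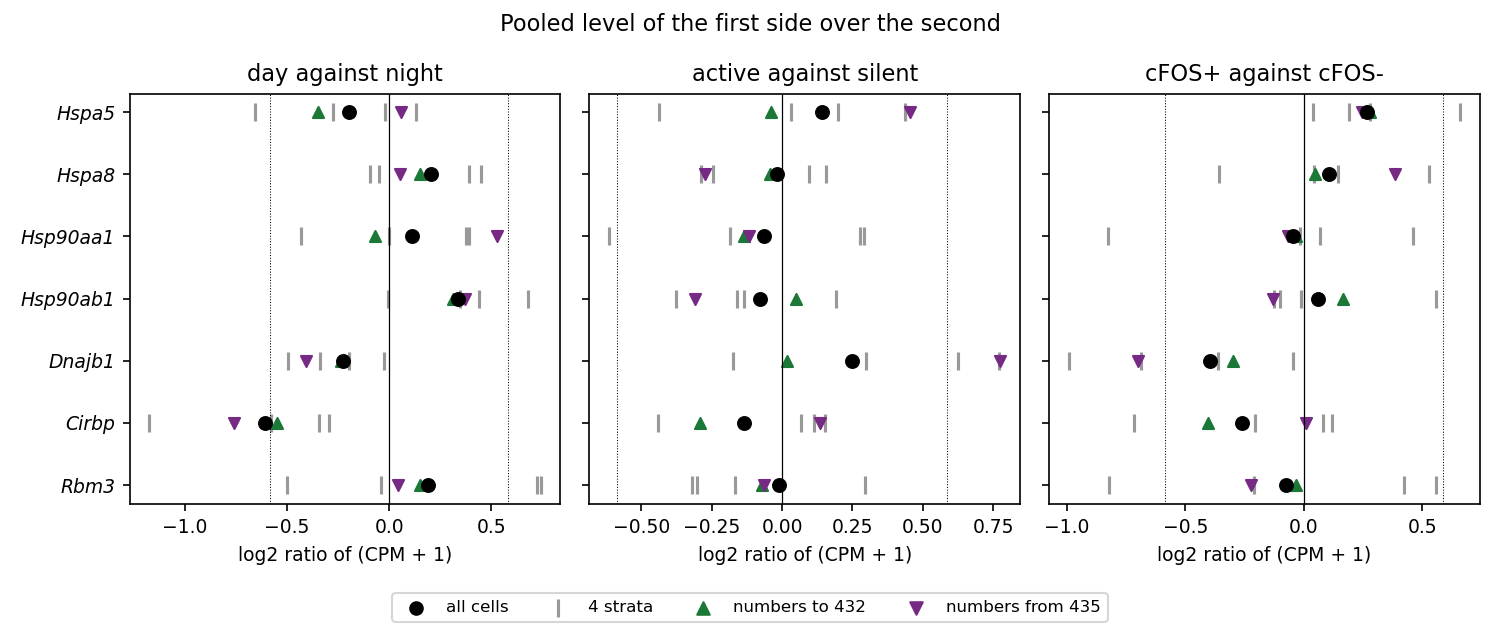
Log2 ratio of pooled (CPM + 1) for the 7 members with at least 20 CPM, for day over night, active over silent and cFOS+ over cFOS- cells. Black points are all cells, grey ticks the 4 strata, triangles the lower- and higher-numbered sets of cells, and dotted lines mark 1.5-fold; only Cirbp by day lies past the line among the black points, at -0.61.

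The 14 depolarized cells entered no comparison and are given as they stood. Hspa1a reached 184.5 CPM in cell S233 and 233.9 CPM in cell S262, both of the 3 night depolarized cFOS+ cells, and 0 in the third cell, S242. The value of S262 was the highest of all cells, and these cells are singled out after their values were seen. The 2 night depolarized cFOS- cells had 595 and 2447 CPM of Dnajb1. Both day depolarized cFOS+ cells had 0 CPM of Dnajb1, Rbm3 and Hspa1a and at most 2.64 CPM of Cirbp. Among the 7 day depolarized cFOS- cells Hspa8 ran from 793 to 3878 CPM with a median of 2263 CPM, and Hspa1a was 111 CPM in S381 and 0 in the other cells.

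Dnajb1 and Cirbp differed between cells of different peptide content. Dnajb1 stood at 470 CPM in 55 cells with at least 100 CPM of Vip, at 130.3 CPM in 95 cells with that much Avp and less Vip, and at 335.8 CPM in 147 cells with neither. Of the Vip cells 52 were in the lower-numbered set. There the levels were 494, 151.7 and 380.6 CPM (medians 188.96, 0.999 and 181.5 CPM), and in the higher-numbered set 107 CPM in 45 Avp cells and 260.4 CPM in 52 cells with neither. The 3 Vip cells of that set had 37.9 CPM of Dnajb1, the lowest of the classes there, so the order of the classes differed between the sets. Dnajb1 quartile ranges of the 3 classes overlapped in the lower-numbered set (0 to 367, 0 to 217 and 45.2 to 546.9 CPM). Cirbp stood at 277.0, 390.7 and 295.2 CPM in the 3 classes, and within the lower-numbered set at 274.7, 409.1 and 319.9 CPM and within the higher at 317.8, 371.1 and 253.5 CPM. Avp cells were thus highest in both sets, while the order of the other classes differed between the sets. Hsp90ab1 was close to even over all cells, at 1942, 2105 and 1992 CPM, and in the lower-numbered set, at 1964.5, 2086.8 and 2069 CPM. In the higher-numbered set it was less even, at 1537 CPM in the 3 Vip cells, 2124 CPM in Avp cells and 1861 CPM in the rest.

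Across the 165 active and 118 silent cells, few members varied together. Cells share slices, depth and the step between the sets, so Spearman's rho is given as a description. Of 45 pairs, 26 had a rho between -0.1 and 0.1 and 4 were at 0.3 or above, and the median was 0.06. Hspa8 and Hsp90aa1 had the highest rho, 0.54 over all cells, but 0.31 among the 183 lower- and 0.25 among the 100 higher-numbered cells. Hspa1a and Hspa1b had nearly as high a rho, also 0.54, with 0.37 and 0.92 within the sets, and both are at 0 in most cells and share most of their sequence. In the higher-numbered set Hspa1b was read in 10% of cells and reached at most 1.95 CPM. Centred on the mean of each group, the rho of this pair was -0.12 over all cells. Hspa8 and Hsp90ab1 had 0.36, and kept 0.38 and 0.37 within the sets. Hsp90aa1 and Hsp90ab1, whose coding sequences were 75.7% identical, had 0.28, with 0.20 and 0.39 within the sets. Dnajb1 and Hspa8 had 0.33, with 0.31 and 0.05. Cirbp and Rbm3 had 0.09 and 0.07 within the sets, and Hspa5 had at most 0.20 in either set with the 6 other members of the plot.

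**Figure D5:**
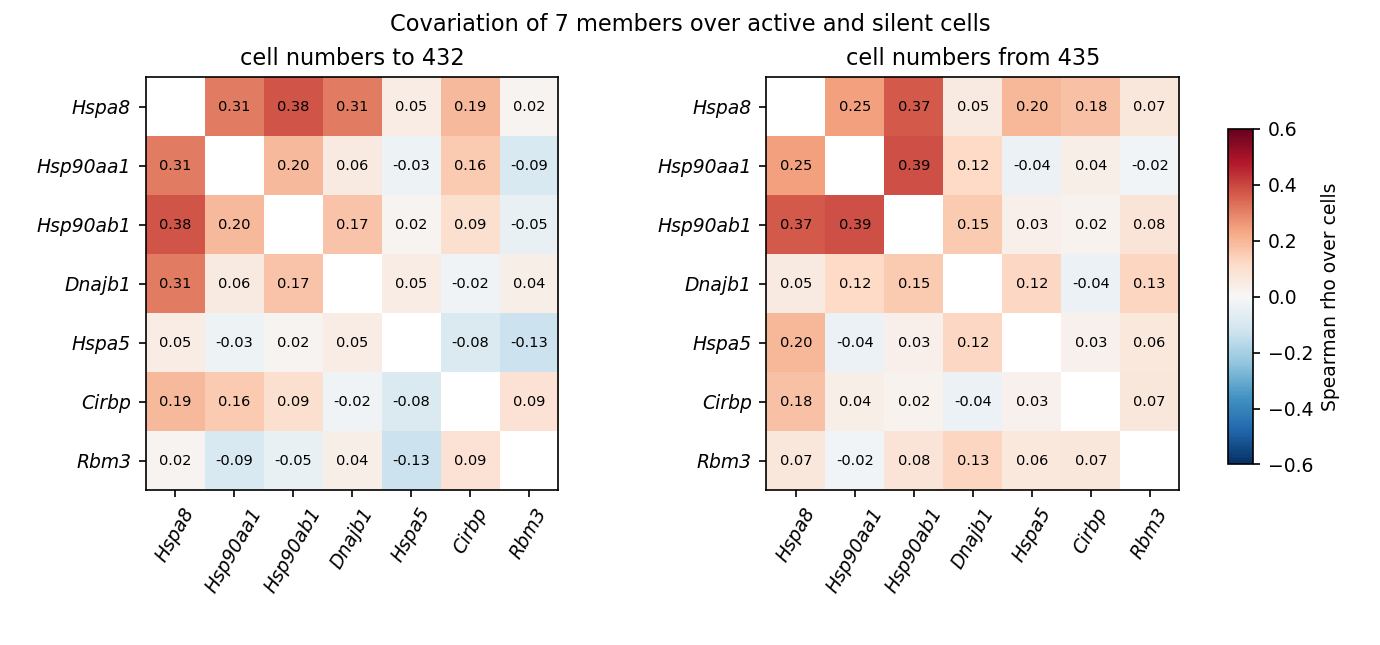
Spearman's rho between 7 members over the active and silent cells, for 183 cells of the lower-numbered set (left) and 100 of the higher-numbered set (right), with the value in each square. Hspa8 with Hsp90ab1 (0.38 and 0.37), Hspa8 with Hsp90aa1 (0.31 and 0.25) and Hsp90aa1 with Hsp90ab1 (0.20 and 0.39) are among the darker squares. Hspa8 with Dnajb1 is 0.31 on the left and 0.05 on the right. Most squares of Hspa5, Cirbp and Rbm3 are pale, but Hspa5 with Hspa8 reaches 0.20 on the right and Hspa8 with Cirbp 0.19 on the left.

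The genes most like each member across cells were named by rho among genes with at least 20 CPM and a read in 50% of cells or more. Hspa5 was most like the ER genes Calr (0.31) and Pdia6 (0.29) and the lysosomal Gaa (0.29), and these values were 0.30, 0.29 and 0.29 when cells were ranked within their set. Over 2917 genes compared within sets, the median rho with Hspa5 was -0.01 and the 95th percentile 0.11. Both Calr and Pdia6 hold the ER stress element that is printed above for Hspa5. The other genes of the ER list among the 10 most like Hspa5 were Hsp90b1 (0.23), which holds it, and Pdia3 (0.20), whose window does not. Whether the element has a part in these values was not tested. Hspa8 was most like Gapdh (0.66), Ppia (0.63) and Tlcd1 (0.55), which were 0.21, 0.20 and 0.19 when ranked within the sets. Rbm3 was most like Ppia (0.26), Oaz1 (0.25) and Fau (0.25), which were -0.02, 0.06 and 0.09 when ranked within the sets. Ranked within the sets, a choice made after the step was seen, Hspa8 was most like the ubiquitin gene Ubb (0.50), Skp1a (0.43) and Zwint (0.42).

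Hsp90ab1 was most like Hspa8 (0.36), Tuba1a (0.33) and Uqcrfs1 (0.31), which were 0.37, 0.32 and 0.29 when ranked within the sets. Dnajb1 was most like Hspa8 (0.33), Tuba1a (0.33) and Mien1 (0.31), which were 0.22, 0.29 and 0.28. Hsp90aa1 was most like Ppia (0.55), Hspa8 (0.54) and Gapdh (0.50), which were 0.18, 0.29 and 0.09 when ranked within the sets. Cirbp had a rho of 0.29 with Nol7 and 0.27 with Mdh1, which were 0.28 and 0.27 when ranked within the sets. Among sparse genes, Hspa1a reached 0.26 with Tubg2, Hspa1b 0.22 with Slc38a2 and Hspb1 0.23 with Acly. The rho of Dnajb1 with the summed immediate early genes was 0.29 (0.30 and 0.19 within the sets) and with Fos 0.26 (0.28 and 0.16). With the number of genes detected in a cell it was 0.22 (0.15 and 0.21). Over 2917 genes compared across all these cells, the median rho with Dnajb1 was 0.07 and the 95th percentile 0.20. The part of the number of genes detected in the activity values was not tested. Cirbp had a rho of -0.18 with Fos (-0.15 and -0.24 within the sets).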

How the data were processed

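The data are reads of 298 single SCN cells over 22800 gene rows. The authors deposited raw read counts per gene and a table of normalized signal, which equals the counts divided by 1 factor per cell and was used only as an alternative. A log table was not used. STAR, DESeq2 and the build GRCm38.p4 are named in the submitters' processing notes without roles or versions. The aligner settings, annotation, counting tool, strand use and treatment of reads that fit several genes are not stated in any source used here, and no molecular identifiers are mentioned. All columns belonged to a labelled cell, and no cells were filtered beyond the averaged pair. No doublet caller was run, as each library came from 1 pipette.

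Counts were summed per group and scaled to CPM, and ratios are log2 of (CPM + 1) in Python 3.11.15 with pandas 2.3.3, scipy 1.17.1 and Biopython 1.88. Genes with at least 20 CPM on one side were measured, and 1.5-fold counted as called. Cells are not replicates, so no test between groups was made, and Dixon's limit served only to single out cells of the small groups. The calculations were tested on simulated data. Sequences come from RefSeq (GRCm38.p6) and positions and transcripts from GENCODE M21 (GRCm38). Named beside the members are the 3 genes with the highest rho per member, and up to 4 genes per list past 1.5-fold with 1 direction in all strata; predicted, ribosomal and mitochondrial genes were left out of the rho ranking. One gene that this rule names is not reported here. The members and lists were chosen with earlier results of these data known. Alternatives were other summaries, pseudocounts, lower and upper cell numbers, cells with less than 100 CPM of microglia markers, and the sets of numbers, which were added after seeing the data.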

Additional observations from a re-analysis of the deposited data

Results flagged for a closer look

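Among the 7 day depolarized cFOS- cells, 1 cell stood apart from the other 6 by Dixon's 95% limit (0.568 for 7 samples) for Hspa1a, at 111 CPM against 0 in the others. In the same group 1 cell had 0.174 CPM of Hspa1b and the others 0. With 9 combinations of gene and group tested, chance flags about 1 in 20, and a gene read in 1 of 7 cells always passes this limit. The Hspa1b value is at the level of single reads.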

How the results depend on the processing

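The number of the 7 measured members that were higher by day was 4 and stayed within 1.5 times of it under every alternative run. For active against silent cells it was 2 in the pooled counts, 4 as a mean over cells of CPM, without the top cell of each side and with the deposited normalized values, 1 among cell numbers up to the median and 6 above it. For cFOS+ against cFOS- cells it was 3, and 5 as a mean over cells, as a median of log2 values and with the deposited normalized values. The cause was not tested, and no direction is read from these counts. The median rho over member pairs was 0.064, and 0.050 when centred on each group, 0.016 in the lower-numbered set and 0.034 for ranks within each set, alternatives of which the last pair was added after seeing the data. Over 12 alternatives the Cirbp day over night ratio ran from -0.76 to -0.51 and that of Hsp90ab1 from 0.26 to 0.37, and over the cFOS labels Hspa5 ran from 0.17 to 0.42 and Dnajb1 from -2.28 to -0.13, without a change of sign. Cirbp fell short of 1.5-fold as a mean over cells (-0.51), with the deposited normalized values (-0.53) and among lower cell numbers (-0.56 up to the median number, -0.55 in the lower-numbered set). Hspa5, Hsp90aa1 and Dnajb1 changed sign by day under 1, 2 and 1 of the 12. No paired analysis was possible because no groups share more than 1 replicate number. With no animal or slice named, the spread between animals is unknown, and a median of 0 limits what can be said of Hspa1a, Hspa1b and Hspb1.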

Other observations

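The averaged night silent cell without a cFOS label (S70 and S71) held 2348 CPM of Hspa8, 2535 CPM of Hspa5, 2012 CPM of Hsp90ab1, 842 CPM of Hsp90aa1, 609 CPM of Cirbp and 79.5 CPM of Rbm3, with no read of Dnajb1, Hspa1a, Hspa1b or Hspb1.

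Other genes of the heat shock network ranged widely in level. Common ones were Stub1, a ubiquitin ligase that works on chaperone clients, at 576 CPM (read in 93.9% of cells), Dnaja1, an HSP40, at 492.8 CPM (94.9%), Hsph1, an HSP110, at 412.2 CPM (80.1%) and Stip1, which links HSP70 to HSP90, at 374.9 CPM (85.5%). Sparse ones were among those known for induction by stress, as Bag3 stood at 7.65 CPM (9.09%), Cryab at 9.99 CPM (8.42%) and Hspb8 at 29.9 CPM (20.5%), but Dnaja4, also induced by heat, stood at 129 CPM (52.2%), and Hsph1 is itself heat-inducible. Hspa2 and Hspa1l, further HSP70 genes, stood at 4.21 CPM (6.06%) and 2.25 CPM (5.05%). The transcription factor Hsf1 itself stood at 75.8 CPM with a read in 55.9% of cells. These genes were picked from the list after their levels were seen, and those with at least 20 CPM on one side are part of the co-chaperone counts in the comparisons.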
